A study of Arabidopsis thaliana with 4 samples.

Results

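The genes described here build the Casparian strip, the lignin band that seals the wall between neighbouring endodermal cells of the root. They were taken by locus identifier, as 10 loci that were all found among the 33602 loci counted in each library. Values are given for 9 of them, the scaffold genes CASP1 (AT2G36100), CASP2 (AT3G11550), CASP4 (AT5G06200) and CASP5 (AT5G15290), the dirigent protein gene ESB1 (AT2G28670), the transcription factor gene MYB36 (AT5G57620), the receptor kinase gene SGN3 (AT4G20140, also named GSO1), the peroxidase gene PER64 (AT5G42180) and the cytoplasmic kinase gene SGN1 (AT1G61590). By the TAIR10.1 annotation, CASP1 and ESB1 are on chromosome 2, CASP4, CASP5, MYB36 and PER64 on chromosome 5, CASP2 on chromosome 3, SGN3 on chromosome 4 and SGN1 on chromosome 1.

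CASP proteins gather in the plasma membrane in a ring around each endodermal cell and hold there the enzymes, PER64 among them, that lay down lignin. MYB36 switches on CASP genes, ESB1 and PER64 as the endodermis differentiates. SGN3 is the receptor for the CIF peptides made in the stele, and SGN1 acts downstream of it, so that the ring is closed without gaps and the barrier is monitored.

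RNA came from root tips of Arabidopsis thaliana seedlings 4 days after germination on agar medium with 1 mM phosphate (high phosphate) or 5 µM phosphate (low phosphate). The genotypes were Col-0, the usual reference strain, and med16-2, which is mutant for the Mediator subunit MED16 and carries the same ecotype label, and both were grown at both levels. Mediator links transcription factors to RNA polymerase, and MED16 is a subunit of its tail. The kind of lesion in med16-2 is not given in the labels, and a single mutant line was used. Each of the 4 groups is 1 library, so no value below has a replicate, and the ratios compare libraries, not conditions.

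Gene counts per library summed to between 10079345 and 15696333. MED16 itself had 420 and 747 counts in the Col-0 libraries and 56 and 48 in the med16-2 libraries, in the direction the labels give. The library of med16-2 at low phosphate stood apart in its deposited counts, gene lines and other lines together. Of these 36.6% were listed as alignments to several places, against 6.65% to 9.27% in the other 3. Of the comparisons that follow, phosphate in Col-0 and genotype at high phosphate do not use that library. Root cap and meristem markers were present throughout, at summed levels of 183 to 233 and 95.5 to 118 CPM (gene counts scaled to a common library total), and the 9 Casparian strip genes at 519 to 785 CPM. In whole root tips, fewer endodermal cells and less RNA per cell cannot be told apart. All CPM values were scaled by TMM, edgeR's trimmed mean of M values.

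The promoters of CASP1 and CASP5 are shown because CASP1 had the highest level of the CASP genes given here and CASP5 the largest ratio between genotypes, as described below. Each is the 250 bases before the annotated transcript start in RefSeq's TAIR10.1 assembly, whose nuclear chromosomes are those of TAIR10. CASP1 lies on the minus strand, at chr2:15160800-15161049, and CASP5 on the plus strand, at chr5:4966761-4967010. Capitals mark the MYB core motif, searched on both strands as CNGTTA or CNGTTG.
CASP1: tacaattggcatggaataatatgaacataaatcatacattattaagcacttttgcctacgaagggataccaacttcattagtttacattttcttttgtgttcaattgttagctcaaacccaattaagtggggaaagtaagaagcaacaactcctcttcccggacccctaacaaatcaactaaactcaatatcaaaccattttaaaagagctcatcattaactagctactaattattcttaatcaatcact
CASP5: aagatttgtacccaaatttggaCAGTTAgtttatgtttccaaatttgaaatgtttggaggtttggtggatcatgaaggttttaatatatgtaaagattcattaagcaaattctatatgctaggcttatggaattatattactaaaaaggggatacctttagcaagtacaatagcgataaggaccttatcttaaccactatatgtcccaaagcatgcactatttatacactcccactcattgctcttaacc

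CASP5 held 1 match to the MYB core, CAGTTA at bases -228 to -223 from the start, and CASP1 held 0. Among the others, CASP2 and PER64 held 0, CASP4, MYB36 and SGN3 held 1 each, and ESB1 and SGN1 held 2 each. In CASP2, 173 of the 250 bases searched lie in exons of another gene, which was the case in no other member. The motif is common, in 40.7% of 27443 promoters of the same length. The AC element of lignin genes (ACCTACC, with the variants ACCAACC and also ACCTAAC, in 6.12% of promoters) was found in SGN1 alone, as ACCAACC at bases -99 to -93. The phosphate starvation motif P1BS (GNATATNC, in 5.46% of promoters) and the G-box (CACGTG, in 6.49%) had 0 matches in all 9. A match describes letters in this window and shows no binding.

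The CASP genes were well covered in every library, and the 4 given here were lower in both med16-2 libraries than in both Col-0 libraries. CASP1 had 1939 counts in high-phosphate Col-0, 3481 in low-phosphate Col-0, 2184 in high-phosphate med16-2 and 1993 in low-phosphate med16-2, which is 197, 218, 152 and 162 CPM. The highest CASP1 library was thus Col-0 at low phosphate and the lowest med16-2 at high phosphate. CASP2 had 1047, 1766, 1095 and 890 counts in the same order of libraries, or 106, 111, 76.1 and 72.6 CPM. Both med16-2 libraries of CASP2 were below either Col-0 library, and the libraries of each genotype lay close together. CASP4 had 535, 861, 638 and 449 counts, or 54.3, 53.9, 44.3 and 36.6 CPM. CASP5 had 250, 491, 156 and 127 counts, or 25.4, 30.8, 10.8 and 10.4 CPM. In proportion, the gap between the genotypes was wider here than in the other 3, at both phosphate levels.

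Per kilobase of exon, the mean level over the 4 libraries was 202 CPM for CASP1, 91.8 for CASP2, 46.5 for CASP4 and 21.6 for CASP5. That order, CASP1 highest and CASP5 lowest, was the same in each library. All 4 genes have 3 exons, and their coding sequences run from 564 bases in CASP5 to 621 in CASP1. CASP2 and CASP4 are the closest pair, with 80.6% of aligned coding bases identical, and the other 5 pairs are between 64.6% and 67.0%. No stretch of 50 bases in the exons of these genes occurs elsewhere in the genome, so reads of that length within an exon would not be shared among them by exact match.

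ESB1 was near the limit of detection, at 5, 10, 6 and 4 counts in the same order of libraries. Its levels were 0.508, 0.626, 0.417 and 0.326 CPM, close to the 0.191 to 0.298 CPM that a count of 0 allows in these libraries (3 counts). ESB1 was the 1 member below the filter of a mean of 1 CPM, which 18692 loci passed, so it entered no comparison. Of its 1731 exonic bases, 1459 (84.3%) lie within an exon of AT2G28671 on the opposite strand, a locus with 2, 3, 3 and 0 counts. The libraries do not keep strand, and reads that fell in more than 1 gene were listed apart, at 211797 to 335964 reads per library. How many of those came from ESB1 was not tested, so its counts cannot be read as its level of expression. In the other members at most 7.88% of exonic bases, in SGN3, overlap another locus, and CASP2, CASP4, MYB36 and SGN1 overlap none.

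**Figure D1:**
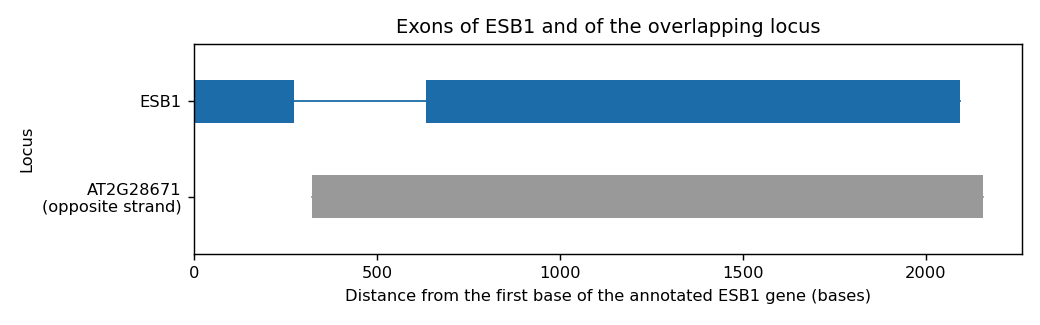
Exons (boxes) and introns (lines) of ESB1 and of the locus on the opposite strand, by distance in bases from the first base of the annotated ESB1 gene. The single exon of AT2G28671 covers all of the larger ESB1 exon, 1459 bases, and leaves the smaller one, 272 bases, free.

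The regulators and enzymes covered a similar range of levels. MYB36 had 323 counts in high-phosphate Col-0, 735 in low-phosphate Col-0, 385 in high-phosphate med16-2 and 338 in low-phosphate med16-2, or 32.8, 46.0, 26.7 and 27.6 CPM. Col-0 at low phosphate was the high library, and the other 3 lay close together. SGN3 had 755, 1445, 887 and 792 counts in the same order, or 76.6, 90.5, 61.6 and 64.6 CPM. SGN1 had 388, 1065, 472 and 538 counts, or 39.4, 66.7, 32.8 and 43.9 CPM. SGN1 was the tested member in which the genotypes overlapped, since med16-2 at low phosphate exceeded Col-0 at high phosphate. PER64 had 1452, 2673, 1650 and 1328 counts, or 147, 167, 115 and 108 CPM, with both med16-2 libraries below both Col-0 libraries. Per kilobase of exon, PER64 had a mean level of 109 CPM, SGN1 25.9, MYB36 24.1 and SGN3 17.2.

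**Figure D2:**
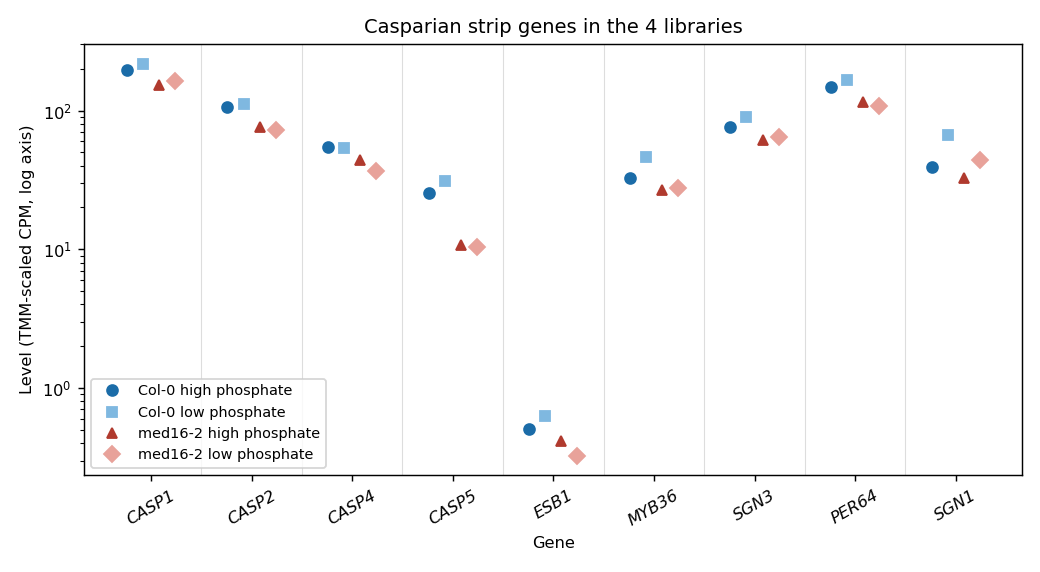
Level of each Casparian strip gene in the 4 libraries, as TMM-scaled CPM on a log axis, 1 point per library. CASP1 was at 152 to 218 CPM and ESB1 at 0.326 to 0.626 CPM, and in the CASP genes the med16-2 points (triangles and diamonds) lie below the Col-0 points.

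The ratio of the highest to the lowest of the 4 libraries had a median of 1.54 over the 8 tested members, from 1.44 to 2.97 in CASP5, and was 1.44 to 1.52 in CASP1, CASP2 and CASP4. The same median over all 18692 loci was 1.35. Over the 12793 loci averaging 10 CPM or more it was 1.28, with a 10th percentile of 1.11 and a 90th of 1.86. All 8 tested members were above both medians, and CASP5 and SGN1, at 2.97 and 2.03, were above that 90th percentile.

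The comparison of med16-2 with Col-0 asked whether the strip genes differ when MED16 is disrupted. All 8 tested members had lower levels in med16-2 at each phosphate level, and CASP5 was the 1 that met the size rule. The rule required a ratio of at least 2-fold and a 95% interval excluding equality. The interval is exact, and like those in parentheses below it covers counting error only, not variation between plants. At high phosphate 1 of 8 members was called lower, where 6.34% of all loci were, and 0 higher, where 0.712% were. At low phosphate 1 of 8 was again called lower, where 6.14% of loci were, and 0 higher, where 1.04% were. Both med16-2 libraries were below both Col-0 libraries in 7 of the 8 members, a pattern seen in 25.6% of all loci.

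The CASP5 level of med16-2 was 2.34-fold below that of Col-0 (1.91 to 2.88) with high phosphate and 2.96-fold below it (2.44 to 3.64) with low phosphate. These are log2 ratios of -1.23 (-1.53 to -0.93) and -1.57 (-1.86 to -1.29), and neither interval overlaps that of another member. CASP1 had log2 ratios of -0.38 (-0.46 to -0.29) at high phosphate and -0.42 (-0.50 to -0.34) at low phosphate. CASP2 had -0.48 (-0.61 to -0.36) and -0.61 (-0.73 to -0.49). The intervals of CASP1 and CASP2 overlapped at both phosphate levels, at low phosphate only from -0.50 to -0.49. CASP4 had -0.29 (-0.46 to -0.12) and -0.56 (-0.73 to -0.39).

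The regulators were also lower by less than 2-fold. MYB36, the transcription factor upstream of the CASP genes, had log2 ratios of -0.29 (-0.51 to -0.08) at high phosphate and -0.74 (-0.93 to -0.55) at low phosphate. SGN3 had -0.32 (-0.46 to -0.17) and -0.49 (-0.61 to -0.36), and SGN1 had -0.26 (-0.46 to -0.07) and -0.60 (-0.76 to -0.45). PER64, the lignin-forming peroxidase, had -0.36 (-0.47 to -0.26) and -0.63 (-0.73 to -0.53). The median over the 8 members was -0.34 at high phosphate, where that of all loci was 0.02, and -0.61 at low phosphate, where that of all loci was 0.01. The quartiles of all loci were -0.28 and 0.21 at high and -0.27 and 0.21 at low phosphate.

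**Figure D3:**
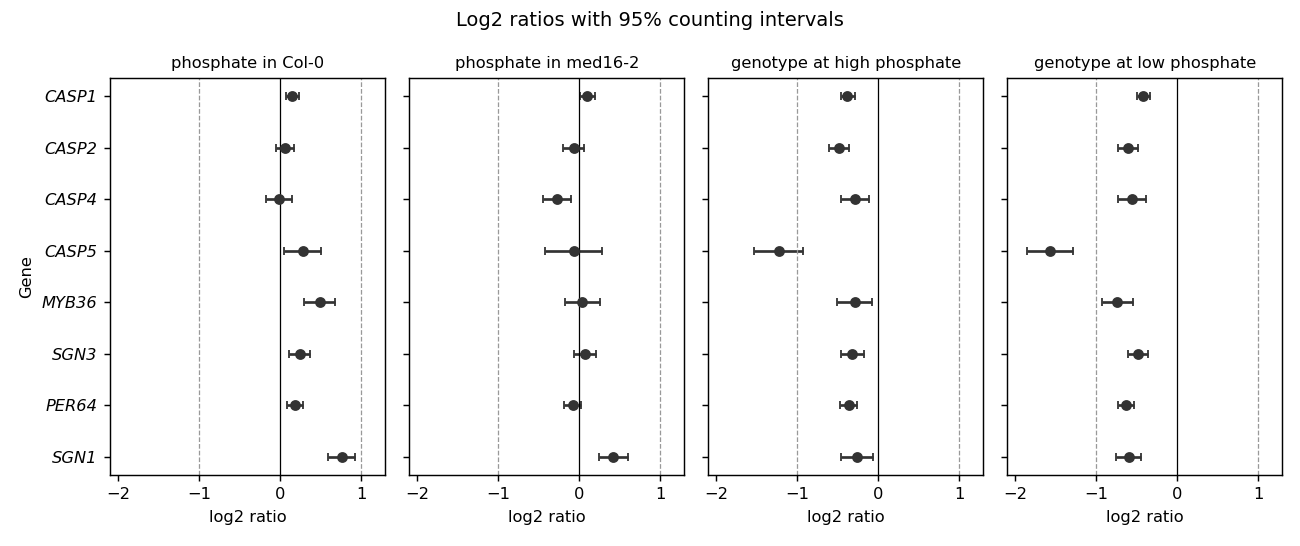
Log2 ratio of each of the 8 tested members in 4 comparisons, with 95% counting intervals as bars. Dashed lines mark 2-fold, and CASP5 in the 2 genotype panels, at -1.23 and -1.57, is the only point beyond them.

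A test across all 4 libraries was possible only in an additive model, with genotype and phosphate as terms and 1 residual degree of freedom. In that model edgeR's quasi-likelihood test, adjusted by the Benjamini-Hochberg method over all loci tested, called 4 of 8 members lower in med16-2, where 6.52% of all loci were called lower and 0.792% higher. CASP5 had a log2 change of -1.40 with an adjusted p of 0.00902 from edgeR, CASP2 -0.55 with 0.0256, PER64 -0.50 with 0.0452 and CASP1 -0.40 with 0.0455. In each of these 4 genes both med16-2 libraries were below both Col-0 libraries. SGN3 (-0.40), CASP4 (-0.43), SGN1 (-0.44) and MYB36 (-0.52) had edgeR adjusted p-values of 0.0601, 0.0686, 0.0775 and 0.0778 and did not pass. DESeq2 called 2 members, CASP2 and CASP5, where it called 4.46% of all loci in either direction, and gave CASP1 an adjusted p of 0.156 and PER64 one of 0.0685. The error in this model is the unequal phosphate ratio of the 2 genotypes, not the spread between replicates.

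The comparison of low with high phosphate asked whether the strip genes differ with phosphate supply. In neither genotype did a member meet the size rule. In Col-0, 0 of 8 were called higher, where 3.24% of all loci were, and 0 lower, where 1.49% were. In med16-2, 0 of 8 were called higher, where 2.26% of loci were, and 0 lower, where 1.03% were. SGN1, the cytoplasmic kinase gene, came closest, 1.69-fold higher (1.51 to 1.91) at low phosphate in Col-0 and 1.34-fold higher (1.18 to 1.52) in med16-2.

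Below the 2-fold limit, 6 of 8 members had Col-0 intervals above 0, a direction that 16.9% of all loci shared at any fold. These intervals narrow with the count, and the 8 members are among the better covered loci. In Col-0 the log2 ratios were 0.76 (0.59 to 0.93) in SGN1, 0.49 (0.30 to 0.68) in MYB36, 0.28 (0.05 to 0.50) in CASP5 and 0.24 (0.11 to 0.37) in SGN3. Those of PER64 and CASP1 were 0.18 (0.09 to 0.28) and 0.15 (0.07 to 0.23). CASP2, at 0.06 (-0.05 to 0.17), and CASP4, at -0.01 (-0.17 to 0.15), had intervals that include 0. When libraries were scaled by total counts CASP4 was at 0.05.

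In med16-2 the phosphate ratios of the same genes were smaller or below 0. SGN1 was at 0.42 (0.24 to 0.60) and CASP1 at 0.10 (0.01 to 0.19), the 2 members with an interval above 0, where 13.9% of all loci had one. CASP4 was at -0.28 (-0.45 to -0.10), the 1 with an interval below 0, where 14.4% of loci had one. The remaining 5, CASP2 at -0.07, PER64 at -0.08, CASP5 at -0.06, MYB36 at 0.04 and SGN3 at 0.07, had intervals that include 0. The median over the 8 members was 0.21 in Col-0, against -0.02 over all loci, and -0.01 in med16-2, against -0.01. In the additive model edgeR called 0 of 8 members for phosphate, where 0.781% of all loci were called higher and 0.187% lower. DESeq2 also called 0, where it called 1.27% of loci in either direction. With either tool 1 member, SGN1, had an unadjusted p under 0.05, as 13.4% of all loci had with edgeR. SGN1 had an edgeR log2 change of 0.59 and an adjusted p of 0.109, and was higher at low phosphate in both genotypes.

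The log2 phosphate ratio in med16-2 minus that in Col-0 was below 0 in all 8 tested members, with 0 of 8 reaching 2-fold, where 2.16% of all loci were called lower and 2.30% higher. Its normal counting interval was below 0 in 4 of 8 members, as it was in 10.6% of all loci. These were MYB36 at -0.45 (-0.73 to -0.16), SGN1 at -0.34 (-0.58 to -0.09), PER64 at -0.27 (-0.40 to -0.13) and CASP4 at -0.26 (-0.50 to -0.03). CASP5 was at -0.34 (-0.74 to 0.06), SGN3 at -0.17 (-0.36 to 0.02), CASP2 at -0.13 (-0.29 to 0.04) and CASP1 at -0.05 (-0.17 to 0.07). The median was -0.27, against 0.02 over all loci. Every such difference rests on the med16-2 library at low phosphate, where 36.6% of deposited counts were listed as alignments to several places. Of its gene counts 1.37% were on 18S ribosomal RNA, against 0.0963% to 0.172% in the other 3. The part of that library in these differences was not tested, and there is no second library to set in its place.

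Ratios between members within a library do not depend on how libraries are scaled. For every 100 counts of CASP1, CASP5 had 12.9 (11.3 to 14.7) in high-phosphate Col-0, 14.1 (12.8 to 15.5) in low-phosphate Col-0, 7.14 (6.03 to 8.41) in high-phosphate med16-2 and 6.37 (5.28 to 7.63) in low-phosphate med16-2. CASP5 thus stood lower relative to CASP1 in med16-2, with intervals apart from those of Col-0, and the intervals of the 2 phosphate levels overlapped within each genotype.

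The other members kept closer to CASP1. SGN3 stood at 38.9, 41.5, 40.6 and 39.7 per 100 CASP1 counts, with overlapping intervals in all 4 libraries. CASP2 stood at 54.0, 50.7, 50.1 and 44.7, PER64 at 74.9, 76.8, 75.5 and 66.6, and CASP4 at 27.6, 24.7, 29.2 and 22.5, each lowest in med16-2 at low phosphate. MYB36 stood at 16.7, 21.1, 17.6 and 17.0, and was highest in Col-0 at low phosphate. SGN1 stood higher at low phosphate in both genotypes, from 20.0 (17.9 to 22.3) to 30.6 (28.5 to 32.8) in Col-0 and from 21.6 (19.5 to 23.9) to 27.0 (24.5 to 29.7) in med16-2.

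**Figure D4:**
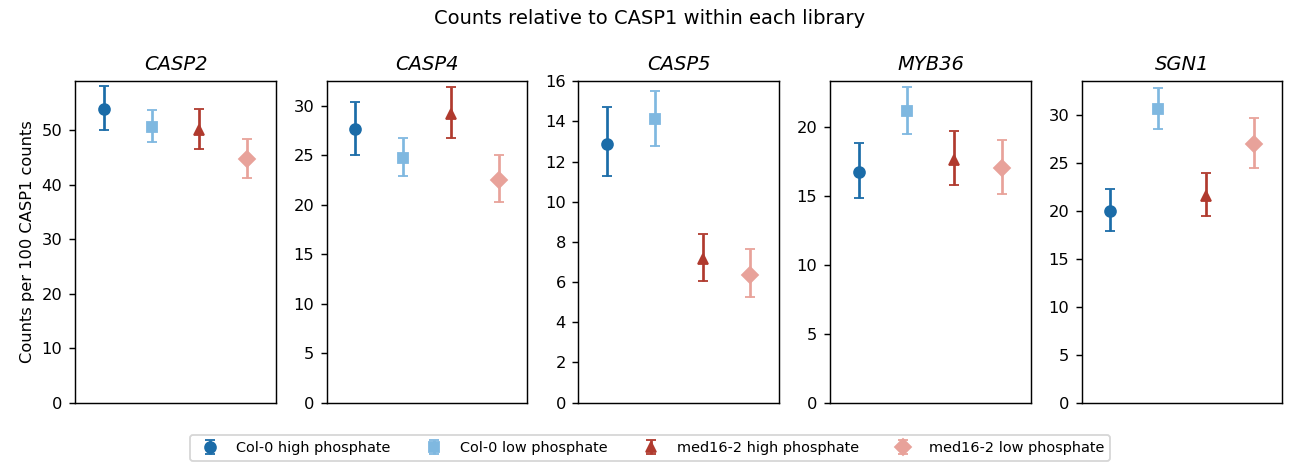
Counts of 5 members per 100 CASP1 counts in each library, with exact 95% counting intervals; each panel has its own axis from 0. CASP5 separates by genotype, 12.9 and 14.1 in Col-0 against 7.14 and 6.37 in med16-2, and SGN1 by phosphate, 20.0 and 21.6 at high against 30.6 and 27.0 at low phosphate.

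Partners of the strip were read from a list of 22 further genes, of which 21 passed the filter. The list holds the CIF peptides and their sulphating enzyme, NADPH oxidases, dirigent proteins, peroxidases, a laccase, CASP-like proteins and MYB factors. It also holds a receptor kinase, an exocyst subunit and a uclacyanin. In med16-2 relative to Col-0, 2 of 21 were called lower at high and 4 of 21 at low phosphate, where 6.34% and 6.14% of all loci were, and 0 higher, with medians of -0.42 and -0.63. For phosphate, 3 were called higher in Col-0 and 1 in med16-2, where 3.24% and 2.26% of all loci were, and 0 lower, with medians of 0.25 and 0.03. In the additive model edgeR called 8 of 21 lower in med16-2, where it called 6.52% of all loci lower. DESeq2 called 5 of 21 lower, where it called 4.46% of all loci in either direction. Most of the list, like most members, stayed under 2-fold. DIR21, a dirigent protein gene, was the 1 below the filter, at 0, 1, 0 and 0 counts.

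RBOHD, an NADPH oxidase that makes superoxide, had 28.6 and 68.0 CPM in high- and low-phosphate Col-0 and 11.2 and 12.0 in med16-2. It was called lower in med16-2 at log2 ratios of -1.35 and -2.50, and its phosphate ratio, 1.25 in Col-0 and 0.10 in med16-2, met the rule for a difference at -1.15. RBOHF, the NADPH oxidase that serves the Casparian strip, was at -0.42 and -0.40 between genotypes and met the size rule in neither comparison, while its additive change of -0.41 had an edgeR adjusted p of 0.0465. CIF1, a ligand of SGN3, had 24, 58, 16 and 21 counts and was called lower in med16-2 at -1.12 and -1.06. CIF2, the second ligand, had 364, 890, 278 and 393 counts, and did not meet the size rule between genotypes either, at -0.94 and -0.80. Its additive genotype change was -0.86 with an edgeR adjusted p of 0.0117. In the same model CIF1 had a change of -1.10 with an edgeR adjusted p of 0.0976, and the receptor gene SGN3 one of -0.40, and these changes were not tested against each other. MYB84, a relative of MYB36, had 18, 68, 31 and 24 counts, was called higher at low phosphate in Col-0 at 1.19, lower in med16-2 at low phosphate at -1.10, and met the rule for a difference at -1.32. CASPL1D2, a CASP-like gene, had 7, 133, 2 and 9 counts and was called higher at low phosphate in both genotypes, at 3.46 (2.47 to 4.89) and 2.16 (0.13 to 5.65), and lower in med16-2 at low phosphate at -3.43 (-4.67 to -2.54).

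Genes that give the endodermis its identity upstream of the strip were SHR, SCR, JKD and 7 more. By the size rule 0 of 10 were called in any of these 5 comparisons, where 3.29% to 7.18% of all loci were. The summed level of the 10 genes was 176, 222, 199 and 191 CPM, lowest in Col-0 at high phosphate. That of the 9 strip genes was 679, 785, 519 and 527 CPM. The genotype medians of the 10 identity genes were 0.12 at high and -0.11 at low phosphate, where those of the strip genes were -0.34 and -0.61. For phosphate in Col-0 the medians were 0.30 in the identity genes and 0.21 in the strip genes. The log2 phosphate ratio in med16-2 minus that in Col-0 was below 0 in 9 of the 10 identity genes, with a median of -0.47. In the strip genes it was below 0 in all 8 tested, with a median of -0.27. SHR and SCR, the transcription factors that specify the layer, had log2 genotype ratios of 0.44 and 0.28 at high phosphate and of -0.05 and -0.04 at low phosphate. SCL3, a relative of SCR, had ratios in the direction of the strip genes, at -0.34 (-0.58 to -0.09) and -0.83 (-1.05 to -0.62), with an additive change of -0.59 and an edgeR adjusted p of 0.0727. At low phosphate BLJ was at -0.55, NUC at -0.32 and JKD at -0.26, and in the list as a whole 6 of 10 genes were above 0 at high phosphate and 3 of 10 at low phosphate. The 2 lists were not tested against each other.

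Genes of suberin, the coat laid down on endodermal cells after the strip, spread over a wider range than the strip genes, in a comparison that was not tested. Of 12 suberin genes 10 passed the filter, and 8 were called higher at low phosphate in Col-0 and 6 in med16-2, with medians of 2.82 and 1.56. Of all loci, 3.24% were called higher in Col-0 and 2.26% in med16-2. The elongase gene KCS20 moved least, at 0.01 (-0.14 to 0.16) in Col-0 and -0.11 (-0.25 to 0.03) between genotypes at low phosphate. CYP86A1, a fatty acid hydroxylase gene, had 5, 396, 4 and 34 counts, and the transporter gene ABCG6 had 9, 382, 9 and 39. FAR4, a fatty acyl reductase gene, had 5, 133, 4 and 14, and the hydroxylase gene CYP86B1 had 20, 246, 14 and 42. All 4 were highest in Col-0 at low phosphate, second in med16-2 at low phosphate, and rare at high phosphate. At low phosphate 7 of 10 suberin genes were called lower in med16-2, where 6.14% of all loci were, with a median of -2.31. CYP86A1 was at -3.14, ABCG6 at -2.90, FAR4 at -2.82 and its relative FAR5 at -2.60. At high phosphate 2 were called lower, where 6.34% of all loci were. These were the elongase gene KCS2 at -1.89 and CYP86B1 at -1.05. The CYP86B1 call rests on 20 against 14 counts, and its interval, -2.16 to 0.00, reaches equality within rounding. The difference of phosphate ratios between the genotypes was called lower in 5 of 10, where 2.16% of all loci were. Among these 5 were ABCG6 at -2.35 and CYP86A1 at -2.31.

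The lignin monomer pathway feeds the strip and also xylem and other cells. Of its genes 14 of 14 were tested and 0 were called by the size rule for phosphate in either genotype. Of all loci, 4.73% were called in either direction in Col-0 and 3.29% in med16-2. The log2 phosphate ratio was above 0 in 9 of 14 in Col-0 and in 14 of 14 in med16-2, with medians of 0.26 and 0.46. For phosphate in the additive model edgeR called 0 of 14. DESeq2 called 1 of 14 higher at low phosphate, where it called 1.27% of all loci in either direction. In med16-2 relative to Col-0, 5 lignin genes were called lower at high phosphate and 1 at low phosphate, with medians of -0.85 and -0.59. Of all loci, 6.34% were called lower at high phosphate and 6.14% at low phosphate. PAL1, the entry enzyme, was at -1.27 at high phosphate, FAH1, the ferulate 5-hydroxylase, at -1.05, C3H1, a hydroxylase, at -1.03, and the alcohol dehydrogenases CAD4 and CAD5 at -1.01 each. CAD5 was also called at low phosphate, at -1.18. For genotype in the additive model edgeR called 11 of 14 lower in med16-2, where it called 6.52% of all loci lower. DESeq2 called 10 of 14 lower, where it called 4.46% of all loci in either direction. By the genotype medians the gap was wider at high phosphate here and wider at low phosphate in the strip genes. That contrast was not tested.

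**Figure D5:**
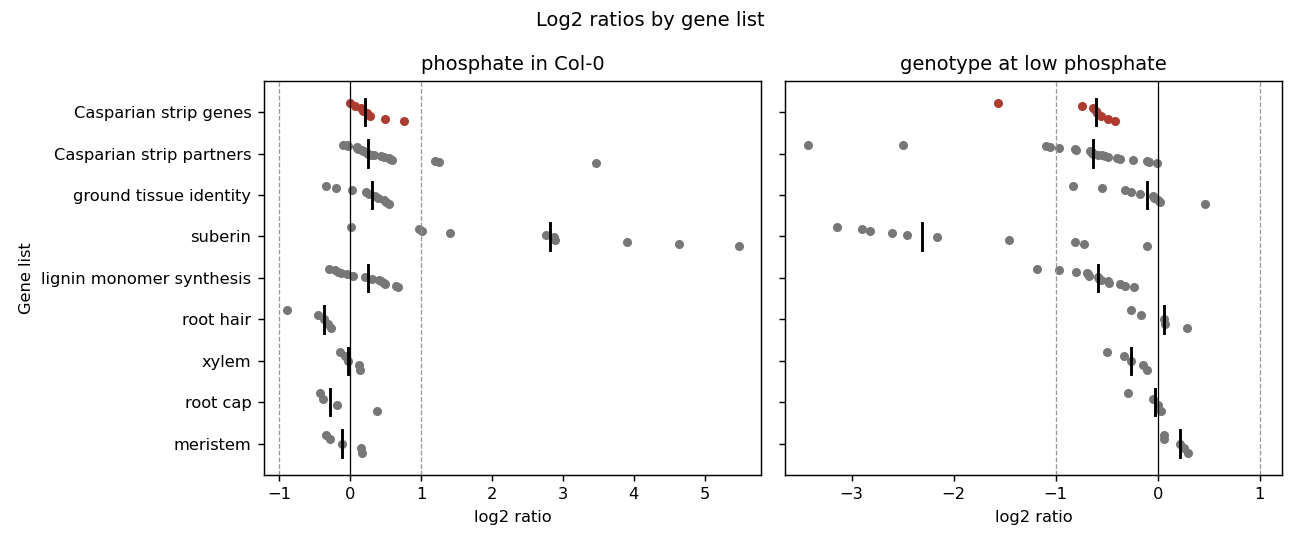
Log2 ratios of the tested members of 9 gene lists for phosphate in Col-0 (left) and genotype at low phosphate (right), 1 point per gene, with the list median as a black bar and 2-fold as dashed lines. Casparian strip genes (red) have medians of 0.21 and -0.61, and suberin genes reach 5.48 and -3.14.

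Among markers of other cell types, root hair and shoot genes had calls between the genotypes. Of all loci, 6.34% were called lower in med16-2 at high phosphate and 6.14% at low phosphate. The summed level of 5 root hair genes was 631, 473, 357 and 462 CPM, and EXPA18 and RSL4 were called lower in med16-2 at high phosphate, at -1.05 and -1.02, while 0 of the 5 were called at low phosphate. RSL4, a transcription factor gene of hair growth, also met the rule for a difference of phosphate ratios, at 1.31, against the direction of the strip genes. The 5 xylem genes summed to 295, 291, 190 and 245 CPM, the 4 root cap genes to 233, 192, 183 and 184 and the 5 meristem genes to 101, 95.5, 118 and 109. In these 3 lists 0 genes were called by the size rule, where 3.29% to 7.18% of all loci were, depending on the comparison. Below that limit, all 5 xylem genes were lower in med16-2 than in Col-0 at both phosphate levels. Their median log2 ratios were -0.67 at high and -0.26 at low phosphate. Their median additive genotype change was -0.46, and that of the 8 tested strip genes was -0.47. The meristem sum was higher in med16-2, where the strip genes were lower. Gene by gene, 4 of the 5 meristem genes were above 0 between the genotypes at high phosphate and 1 was below, at -0.30. At low phosphate all 5 were above 0. The 3 shoot markers summed to 70.3 and 40.1 CPM in Col-0 and 4.45 and 7.34 in med16-2, and all 3 were called lower in med16-2 at both phosphate levels. Of these RBCS1A, for the small subunit of Rubisco, had 108, 65, 0 and 1 counts, CAB1, a light-harvesting gene, had 191, 163, 8 and 7, and RCA, the Rubisco activase gene, had 394, 412, 56 and 82. RBCS1A was also called lower at low phosphate in Col-0, at -1.42, and RCA met the rule for a difference of phosphate ratios, at 1.41. The part of cell type make-up in the levels of the strip genes was not tested.

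The 8 loci outside these lists whose levels over the 4 libraries were most like the mean of CASP1, CASP2, CASP4 and CASP5 were picked from 15207 loci averaging 5 CPM or more. Likeness was the root mean square difference of centred log2 CPM. They were AT3G11580 (0.0119), AT1G11185 (0.0258), MRB1 (AT4G22270, 0.0350), AT4G28890 (0.0351), the cysteine protease gene RD19 (0.0355), the MAP kinase kinase gene MKK9 (0.0381), AT2G37950 (0.0399) and AT5G54940 (0.0402). MKK9, for example, had 25.7, 27.7, 18.1 and 16.3 CPM. CASP2 lay at 0.0721, PER64 at 0.0961, SGN1 at 0.3103 and CASP5 at 0.3435, and CASP4, CASP1, SGN3 and MYB36 lay between, at 0.1535, 0.1541, 0.1559 and 0.1608. With 4 libraries the profile is short, and 112 loci lay within 0.1 of it, as CASP2 and PER64 did and the other 6 tested members did not. CASP1, CASP2, CASP4 and CASP5 are part of the mean itself, so their distances are not comparable with those of other loci.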

How the data were processed

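Non-strand-specific mRNA libraries were sequenced from root tips, 1 per group. The authors deposited raw read counts per locus, whole numbers with no normalization. The submitters' processing notes name TAIR10 and the tools HTSeq 0.6.0, TopHat2 2.0.9 and Trimmomatic 0.35, with settings not given in the sources used here. Lines that name no gene (9.89% to 42.1% of deposited counts) were left out. Libraries were scaled by TMM (edgeR 4.0.16, R 4.3.3). Loci averaging 1 CPM or more were compared.

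Log2 ratios used counts plus 0.5, and their 95% intervals were exact (Clopper-Pearson). The interval for differences of phosphate ratios was normal. With 1 library per group no p-value belongs to a ratio. The additive model was fitted with edgeR's quasi-likelihood test and, as an alternative, DESeq2 1.42.0. Its error is the unequal phosphate ratio of the genotypes, so its p-values do not measure the spread between replicates.

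Members and gene lists were chosen with earlier results of these data known. Named genes were the members, in each other list those called, up to the 4 of largest ratio per comparison, and the 8 loci most like the CASP mean. Of the 10 loci of the rule, 1 is not reported here and enters no count, median or mean of the members. CIF2, RBOHF, SHR, SCR, SCL3, BLJ, NUC, JKD and KCS20 were added after their values were seen. Names and overlaps came from TAIR10.1, matched for 32835 loci.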

Additional observations from a re-analysis of the deposited data

Results flagged for a closer look

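In 3 members the log2 phosphate ratio was above 0 in Col-0 and below 0 in med16-2, so that the ratios of the 2 genotypes had opposite signs. The difference was not tested, since each ratio rests on 1 library per group. CASP5 was at 0.28 in Col-0 and -0.06 in med16-2, a difference of -0.34. PER64 was at 0.18 and -0.08, a difference of -0.27. CASP2 was at 0.06 and -0.07, a difference of -0.13. In med16-2 the counting interval of each of the 3 includes 0, and for CASP2 that in Col-0 does too.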

How the results depend on the processing

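The member ratios kept their direction under every scaling and pseudocount tried, except that CASP4 for phosphate in Col-0 went from -0.01 to 0.05 with total counts. The filters on mean CPM did not alter the scaling, so they could not change a ratio. Single-gene values stayed on their side of the threshold in 352 cases, passed it in 6 and lost it in 2. The 352 include the ratios under those filters, which were fixed in advance. A minimum fold of 1.5 made SGN1 the 1 of 8 members higher for phosphate in Col-0, where 1303 of 18692 loci were called higher. It raised the members lower in med16-2 at low phosphate to 5 of 8 (CASP2, CASP5, MYB36, PER64 and SGN1), where 2219 of 18692 loci were called lower. With DESeq2 the members lower in the additive model numbered 2 in place of 4, and with no filter SGN3 passed at an adjusted p of 0.0456. Over all settings and both tools the adjusted p was 2.37e-04 to 0.0108 for CASP5, 0.0131 to 0.0497 for CASP2, 0.0258 to 0.0685 for PER64 and 0.0322 to 0.156 for CASP1. Counts over all loci moved as follows, higher first and lower second. With a mean CPM of at least 5 they were 255 and 134 for phosphate in Col-0, 181 and 71 in med16-2, 33 and 710 for genotype at high phosphate, 57 and 579 at low phosphate, and 205 and 164 for the difference, from fewer loci. With a minimum of 1.5-fold they were 1303 and 779, 942 and 475, 517 and 2295, 612 and 2219, and 994 and 880. A pseudocount of 5 left 64 higher for genotype at high phosphate and 246 lower for the difference. In the additive model DESeq2 called 37 higher and 796 lower for genotype and 57 lower for phosphate. With no filter edgeR called 312 higher for genotype, and 298 higher and 97 lower for phosphate. The cause was not tested. No paired analysis was possible because each group has 1 library and the labels give no replicate numbers. Leaving out 1 library leaves no residual degrees of freedom, so no such test was run. ESB1, at 4 to 10 counts, was the 1 member too sparsely counted to compare.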
